A study of Mus musculus with 6 samples.

Results

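Epicardial genes were examined in RNA-Seq libraries of coronary ECs sorted from E15.5 mouse ventricles. The set was 10 named genes, *Upk3b*, *Upk1b*, *Msln*, *Clu*, *Dmkn*, *Aldh1a1*, *Aldh1a2*, *Krt8*, *Krt18* and *Krt19*, found by symbol among the 55416 genes of the count table. All 10 were present and all 10 passed the filter on low counts, as did 16296 genes in all. To pass, a gene needed 10 counts or more in 2 or more of the 6 libraries. The study used *Upk1b*, *Upk3b*, *Clu* and *Dmkn* as its own epicardial markers when it checked the sort. The question here was at what level each of the 10 genes was present and whether that level differed between genotypes.

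There were 3 ControlΔEC and 3 Wt1KOΔEC libraries, each labelled a biological replicate. The embryos of both groups carried 1 copy of the tamoxifen-inducible Cre allele Pdgfb-CreERT2 (Pdgfb-iCreERT2 in the study's text) and 1 copy of the R26-mTmG reporter, in which a cell turns on membrane GFP (mGFP) once Cre has acted. ControlΔEC embryos had an intact *Wt1* gene on both chromosomes (Wt1 +/+), and Wt1KOΔEC embryos were homozygous for the floxed allele (Wt1 LoxP/LoxP). Dams received tamoxifen at 75 mg/kg by gavage between E11.5 and E13.5, and mGFP+ cells were collected by FACS at E15.5. Recombination therefore depended on where the Pdgfb driver is active, and any cell type that had recombined would also be mGFP+. On sections of E15.5 hearts with this driver and reporter, the study saw mGFP in compact myocardium vessels. It reports none in epicardium or ventricular endocardium. The labels give embryos of both genotypes from the same litters but not how many embryos made up a library, so p-values measure the spread between these libraries.

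The epicardium is the mesothelial sheet that covers the heart. Its cells are polarised epithelial cells with keratin filaments and uroplakins, they make retinoic acid from vitamin A, and in the embryo some of them leave the sheet and become fibroblasts and mural cells of the myocardium. *Wt1* is itself a classical epicardial transcription factor gene that is also active in coronary ECs, so the same gene is a marker of the epicardium and the target of the deletion.

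The libraries held 26037324 to 44779020 counts, and 3 counts corresponded to 0.0608 to 0.119 CPM (counts scaled to a common library size with TMM factors), taken as the floor of detection for counting error alone. *Wt1* was at 134.3 ± 21.6 CPM (SD, n = 3) in ControlΔEC and 17.9 ± 3.67 CPM in Wt1KOΔEC libraries. With Benjamini-Hochberg adjustment, edgeR's quasi-likelihood test gave a log2 fold change of -2.91 ± 0.22 (± standard error, adjusted p = 0.00319), and the 2 groups did not overlap (exact two-sided permutation test, p = 0.1, the smallest that 3 against 3 allow). The endothelial genes *Pecam1*, an adhesion receptor of EC junctions, and *Cdh5*, which encodes VE-cadherin, stood at 163.3 and 107.3 CPM per kb of exon in ControlΔEC libraries.

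Because WT1 binds GC-rich DNA, the sequences upstream of 3 members are shown. *Upk3b* had the smallest p among the members, and *Krt18* and *Krt8* encode the partner chains of 1 filament and lie near each other on chromosome 15. They are RefSeq promoter windows (250 bases before to 50 after the start, table build GRCm38.p6), each matched exactly once to GRCm39 and given as far as the last base before the annotated gene, 5′ to 3′ on the gene's strand. Capitals mark GCGTGG, the core of a WT1-type motif. They cover chr5:136067100-136067349 (+ strand) for *Upk3b*, chr15:101936401-101936614 (+ strand) for *Krt18* and chr15:101912918-101913027 (- strand) for *Krt8*.
Upk3b: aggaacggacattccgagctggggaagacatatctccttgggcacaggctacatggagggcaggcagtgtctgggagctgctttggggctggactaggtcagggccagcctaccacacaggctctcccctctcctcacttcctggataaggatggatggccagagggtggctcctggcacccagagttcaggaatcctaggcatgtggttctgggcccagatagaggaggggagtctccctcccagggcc
Krt18: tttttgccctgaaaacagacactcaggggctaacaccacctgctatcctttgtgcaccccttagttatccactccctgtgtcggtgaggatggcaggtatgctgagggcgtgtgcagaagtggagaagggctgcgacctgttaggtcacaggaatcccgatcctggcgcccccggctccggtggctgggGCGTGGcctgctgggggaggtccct
Krt8: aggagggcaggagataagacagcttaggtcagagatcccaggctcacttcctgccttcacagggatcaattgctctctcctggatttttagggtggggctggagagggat

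Of the 10 members, 6 had a window in the RefSeq table (*Upk3b*, *Krt8*, *Krt18*, *Aldh1a1*, *Aldh1a2* and *Dmkn*), and *Upk1b*, *Clu*, *Msln* and *Krt19* were not matched. On either strand, none of the 6 genes had GCGTGGGAG or GCGGGGGCG in a window, motifs that 0.472% and 2.91% of all 32851 windows held. The shorter GCGTGG, which lies within the first of these motifs and was added after the data had been seen, was in 15.6% of all windows. It was found in the *Krt18* window at position -61 from the RefSeq start and in the *Aldh1a2* window at position -128. GC made up 58.7% of the *Upk3b* window, 61.3% of that of *Krt18*, 58.0% of that of *Krt8* and 78% of that of *Aldh1a2*, with a median of 52.7% over all windows. It made up 43.3% and 47.0% of the *Aldh1a1* windows and 52.0%, 52.3% and 57.3% of the *Dmkn* windows. These matches describe letters and do not locate a bound site.

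In ControlΔEC libraries every member was scarce beside the endothelial genes. Per kb of exon, *Clu* stood highest at 5.45 CPM, followed by *Krt18* at 2.22, *Aldh1a2* at 1.52, *Krt19* at 1.21, *Krt8* at 0.807, *Upk3b* at 0.576, *Upk1b* at 0.379, *Dmkn* at 0.167, *Aldh1a1* at 0.149 and *Msln* at 0.128 CPM per kb. Of the neighbours in this order, *Clu* and *Krt18* were apart in their libraries, with a lowest *Clu* value of 4.63 and a highest *Krt18* value of 4.13 CPM per kb. All 8 other neighbouring pairs overlapped. In Wt1KOΔEC libraries the same scale gave 6.48 for *Clu*, 6.11 for *Krt18*, 2.56 for *Upk3b*, 2.17 for *Msln*, 2.16 for *Krt8* and 2.08 for *Krt19*.

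None of the 10 members was a differentially expressed gene (DEG) between genotypes in edgeR's quasi-likelihood test, with limits of 0.05 for the adjusted p and 0.58 for the size of the log2 fold change. Over all genes tested 12 were DEGs, or 0.0736%. For 4 members, *Upk3b*, *Upk1b*, *Msln* and *Krt18*, every Wt1KOΔEC library was above every ControlΔEC library. Of all genes tested, 10.4% had that pattern, and 8.95% had the opposite one, which no member showed. A log2 fold change above 0.58 was fitted for 6 members (15.4% of all genes), and no member was as far below 0 (20.9% of all genes). The median log2 fold change of the members was 1.02, against -0.03 over all genes tested.

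DESeq2, the tool that the study's methods name, gave a different count at the same limits. With it, 2 members were DEGs, *Upk3b* (adjusted p = 0.0165) and *Msln* (adjusted p = 0.0151), both higher in Wt1KOΔEC libraries, where 2.14% of the genes with an adjusted p were DEGs in that direction. The same 2 members passed an unadjusted p under 0.05 in edgeR, as did 4.17% of all genes in that direction. Adjusted p-values below are those of edgeR unless DESeq2 is named, and a ± after a log2 fold change is its standard error.

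**Figure D1:**
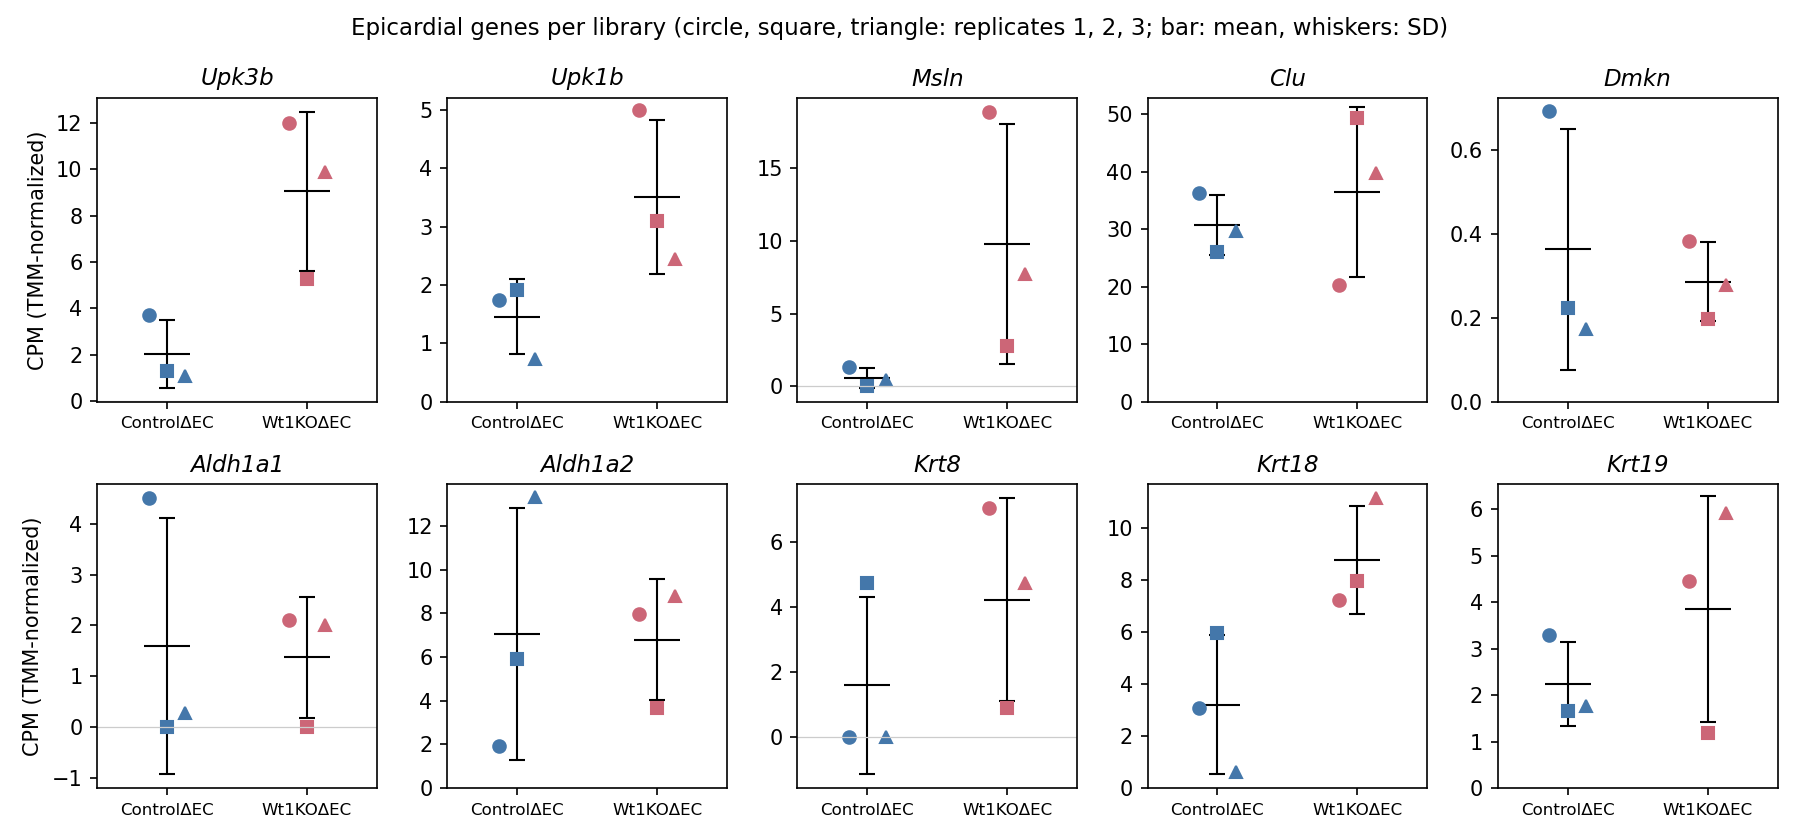
Level of each of the 10 epicardial genes in every library, in TMM-normalized CPM (vertical axes, each gene on its own linear scale), for ControlΔEC and Wt1KOΔEC (horizontal axis). Circles, squares and triangles are replicates 1, 2 and 3, long bars are means and whiskers are SD, which reach below 0 where libraries at 0 sit beside high ones; the groups are apart for *Upk3b*, *Upk1b*, *Msln* and *Krt18*.

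*Msln* and *Upk3b*, genes of the mesothelial surface, had the largest fitted fold changes. *Upk3b* (ENSMUSG00000042985.8, chromosome 5, 136067350 to 136075342, GRCm39) encodes uroplakin 3B, a membrane protein of urothelium and mesothelium. It was at 3.71, 1.32 and 1.07 CPM in ControlΔEC replicates 1, 2 and 3 and at 12.0, 5.28 and 9.89 CPM in Wt1KOΔEC replicates 1, 2 and 3. The lowest Wt1KOΔEC library thus lay above the highest ControlΔEC library. The means were 2.03 ± 1.46 and 9.05 ± 3.43 CPM, and the log2 fold change was 2.15 ± 0.62 (adjusted p = 0.221). It stayed between 1.85 and 2.91 under the 15 alternative settings tried, and was highest without ControlΔEC replicate 1, the ControlΔEC library with the most *Upk3b*.

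*Upk1b* (ENSMUSG00000049436.6, chromosome 16, 38591981 to 38620727) encodes the tetraspanin uroplakin 1B, which helps uroplakin 3 proteins to the cell surface in urothelium. ControlΔEC replicates had 1.74, 1.90 and 0.73 CPM, and Wt1KOΔEC replicates had 4.99, 3.09 and 2.45 CPM. The groups did not overlap, but the gap between the closest libraries was small beside the spread within Wt1KOΔEC. Its log2 fold change was 1.26 ± 0.73 (adjusted p = 0.523), and 0.92 without Wt1KOΔEC replicate 1.

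*Msln* (ENSMUSG00000063011.8, chromosome 17, 25967312 to 25985619) encodes mesothelin, the GPI-anchored surface protein after which mesothelium is commonly stained. Its counts were 59, 0 and 12 in ControlΔEC replicates and 737, 98 and 196 in Wt1KOΔEC replicates, or 1.32, 0 and 0.42 against 18.9, 2.75 and 7.75 CPM. *Msln* was thus the least abundant member per kb in ControlΔEC and among the higher ones in Wt1KOΔEC libraries. At 4.07 ± 1.3 its log2 fold change (adjusted p = 0.254) was the largest of the members. Wt1KOΔEC replicate 1 held most of the *Msln* counts, and without it the log2 fold change was 3.17, while it was 5.68 without ControlΔEC replicate 1 and 5.58 with limma-voom. With no filter on low counts *Msln* was a DEG (adjusted p = 0.0275), a setting under which 296 genes were DEGs in all.

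Of the other uroplakin genes, *Upk2*, *Upk3a* and the *Upk3b* paralog *Upk3bl* had no count in any library. *Upk1a*, the urothelial tetraspanin, was tested with a log2 fold change of -0.01. Among the mesothelial surface genes, *Msln* counts per *Upk3b* count were 0.355, 0 and 0.387 in ControlΔEC replicates and 1.58, 0.521 and 0.784 in Wt1KOΔEC replicates, so these genes did not keep 1 ratio across libraries. *Upk1b* counts per *Upk3b* count ranged from 0.470 to 1.45 in ControlΔEC and from 0.248 to 0.585 in Wt1KOΔEC libraries.

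Neither gene for a secreted protein had its genotypes apart. *Clu* (ENSMUSG00000022037.16, chromosome 14, 66190200 to 66218999), which encodes the secreted chaperone clusterin, was at 36.3, 26.1 and 29.8 CPM in ControlΔEC and at 20.4, 49.3 and 39.9 CPM in Wt1KOΔEC replicates. Its lowest and highest values were both in Wt1KOΔEC libraries, and its log2 fold change was 0.25 ± 0.32 (adjusted p = 0.831), and -0.03 without Wt1KOΔEC replicate 2. *Dmkn* (ENSMUSG00000060962.13, chromosome 7, 30463176 to 30480488), which encodes the secreted epithelial protein dermokine, had 31, 11 and 5 counts in ControlΔEC and 15, 7 and 7 counts in Wt1KOΔEC replicates. At 0.69, 0.22 and 0.17 against 0.38, 0.20 and 0.28 CPM it was only a few times above the floor. Its log2 fold change of -0.34 carried a standard error of 1.43 (adjusted p = 0.963) and was 0.52 without ControlΔEC replicate 1, so a difference of several-fold in either direction was not detectable at this depth.

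Genes of the retinoic acid enzymes varied widely within a genotype. *Aldh1a2* (ENSMUSG00000013584.6, chromosome 9, 71122630 to 71203527) encodes RALDH2, the enzyme that makes retinoic acid in the epicardium. It was at 1.92, 5.90 and 13.3 CPM in ControlΔEC replicates and at 7.96, 3.65 and 8.78 CPM in Wt1KOΔEC replicates. The lowest and the highest library were both ControlΔEC. The log2 fold change was -0.05 ± 0.66 (adjusted p = 0.990), and 0.80 without ControlΔEC replicate 3. *Aldh1a1* (ENSMUSG00000053279.9, chromosome 19, 20469539 to 20622825), which encodes the related enzyme RALDH1, had 202, 0 and 8 counts in ControlΔEC and 82, 0 and 51 counts in Wt1KOΔEC replicates. Replicate 2 of each genotype had none, which allows up to 0.0608 CPM in ControlΔEC and 0.0842 CPM in Wt1KOΔEC. For *Aldh1a1* the log2 fold change of -0.22 ± 1.97 (adjusted p = 0.983) rested on ControlΔEC replicate 1, without which it was 3.32.

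*Aldh1a2* did not follow *Upk3b* across libraries. There were 0.518, 4.48 and 12.4 *Aldh1a2* counts per *Upk3b* count in ControlΔEC replicates, and 0.665, 0.692 and 0.888 in Wt1KOΔEC replicates. The ratio thus spanned a narrow range in the 3 Wt1KOΔEC libraries and a wide one in the 3 ControlΔEC libraries, where replicate 1 had the lowest ratio of all 6. *Wt1* counts per *Upk3b* count were 39.1, 83.1 and 138 in ControlΔEC and 1.17, 3.48 and 2.15 in Wt1KOΔEC replicates.

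The keratins of simple epithelium form filaments that pair a type II chain, such as KRT8, with a type I chain, such as KRT18 or KRT19. *Krt18* (ENSMUSG00000023043.8, chromosome 15, 101936615 to 101940462) was at 3.06, 5.94 and 0.59 CPM in ControlΔEC and at 7.24, 7.94 and 11.2 CPM in Wt1KOΔEC replicates. The groups did not overlap, with ControlΔEC replicate 2 close below the lowest Wt1KOΔEC library. The log2 fold change was 1.45 ± 0.71 (adjusted p = 0.434), 0.97 without ControlΔEC replicate 3 and 2.25 without ControlΔEC replicate 2. Its partner *Krt8* (ENSMUSG00000049382.11, chromosome 15, 101905133 to 101912917) had 0, 234 and 0 counts in ControlΔEC and 276, 31 and 120 counts in Wt1KOΔEC replicates. ControlΔEC replicate 2 thus held all *Krt8* counts of its genotype, and at 4.74 CPM it lay within the Wt1KOΔEC range of 0.87 to 7.06 CPM.

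For *Krt8* the log2 fold change was 1.41 ± 1.80 (adjusted p = 0.833), 4.68 with limma-voom and 6.30 with the replicate number as a block. ControlΔEC replicate 2 was the only library of its genotype with *Krt8* counts, so leaving it out puts ControlΔEC at 0 by choice of library. The mean of the Wt1KOΔEC libraries was then at least 49.4-fold higher than the floor of 3 counts per library. In that setting *Krt8* passed the filter through Wt1KOΔEC libraries alone, so the bound and the adjusted p of 0.114 are description only. *Krt19* (ENSMUSG00000020911.15, chromosome 11, 100031636 to 100039491) was at 3.28, 1.66 and 1.77 CPM in ControlΔEC and at 4.45, 1.18 and 5.93 CPM in Wt1KOΔEC replicates. Wt1KOΔEC replicate 2 was the lowest of all libraries and the other 2 of its genotype were the highest, so the groups overlapped. The log2 fold change was 0.78 ± 0.74 (adjusted p = 0.751), and 0.33 without Wt1KOΔEC replicate 3. The chains were not in a fixed proportion, since *Krt8* counts per *Krt18* count were 0, 0.799 and 0 in ControlΔEC replicates and 0.975, 0.110 and 0.426 in Wt1KOΔEC replicates.

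**Figure D2:**
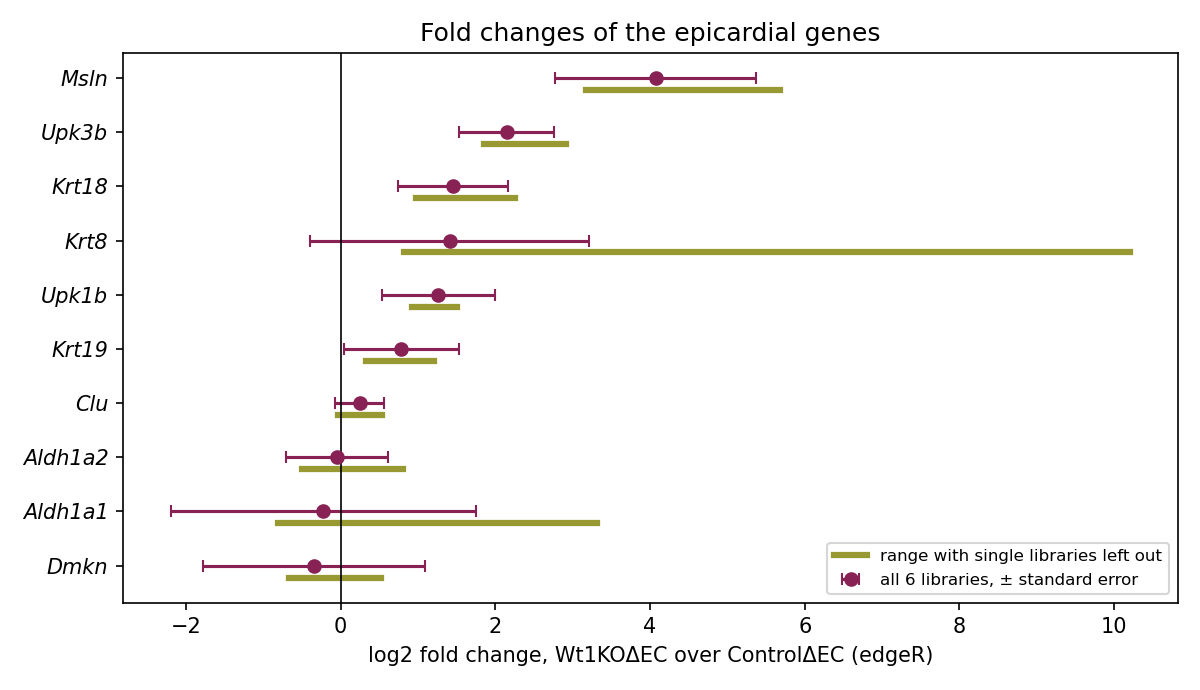
Log2 fold change of each epicardial gene, Wt1KOΔEC over ControlΔEC, from edgeR (horizontal axis), ordered by size. Points and whiskers are the values over all 6 libraries ± standard error and thick lines span the values with single libraries left out; these lines lie above 0 for *Msln*, *Upk3b*, *Krt18*, *Krt8*, *Upk1b* and *Krt19* and cross 0 for *Clu*, *Aldh1a2*, *Aldh1a1* and *Dmkn*, and the far end of the *Krt8* line is a fitted value against a ControlΔEC group at 0 and is no bound.

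Reads of several members could be shared with other genes. Of all stretches of 51 bases, the read length, in the annotated transcripts of *Krt8*, 27.4% also occurred in another gene, mostly the pseudogene *Krt8-ps*, which had 0 to 2 counts per library. The share was 14.8% for *Krt19*, 11.1% for *Dmkn*, 7.89% for *Aldh1a2*, 6.24% for *Aldh1a1* and 4.6% for *Upk3b*, in each case mainly with an annotated gene on the opposite strand over the member's own exons. It was at most 1.88% for *Msln*, *Krt18*, *Clu* and *Upk1b*. The sources used here do not state that counting used the strand, so reads from the overlapping parts cannot be told apart between a member and such an antisense gene. The overlapping genes are those of GENCODE vM39, and whether each was in the vM27 annotation behind the counts was not checked. The *Aldh1a1* copy *Aldh1a7* had 30 counts in Wt1KOΔEC replicate 1 and none in the other libraries.

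Summed over the 10 members, the level was 56.6, 47.8 and 48.1 CPM in ControlΔEC and 85.4, 74.3 and 92.9 CPM in Wt1KOΔEC replicates, a ratio of means of 1.66. The 2 groups did not overlap. *Clu* made up most of the sum in ControlΔEC libraries, and without it the values were 20.2, 21.7 and 18.3 CPM against 65.0, 25 and 53.0 CPM, a ratio of 2.37. Wt1KOΔEC replicate 2 then lay close above the ControlΔEC libraries, and the difference between genotypes came mainly from Wt1KOΔEC replicates 1 and 3. In these bulk samples, a change in the number of cells of a type and a change in RNA per cell cannot be told apart.

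Of the 10 members, 4 were highest in Wt1KOΔEC replicate 1, 2 in replicate 3 and 1 in replicate 2 of that genotype. The remaining 3, *Dmkn*, *Aldh1a1* and *Aldh1a2*, were highest in a ControlΔEC library. Wt1KOΔEC replicate 3 was among the highest 3 libraries for all 10 members and Wt1KOΔEC replicate 1 for 9, against 4 for ControlΔEC replicate 1 and 1 for each of the other ControlΔEC replicates. *Msln*, *Aldh1a1* and *Krt8* were at or under the floor in at least 1 library.

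Related genes were read from lists beside the members. Of 15 other epicardial and mesothelial genes, 13 were tested, none was a DEG in edgeR, 11 had a log2 fold change above 0 and the median was 1.08. In 4 of them every Wt1KOΔEC library was above every ControlΔEC library (10.4% of all genes tested). An unadjusted p under 0.05 in that direction was reached by 2 (4.17% of all genes tested). Of all genes tested, 48.0% had a log2 fold change above 0. *Efemp1*, which encodes the extracellular matrix protein fibulin-3, had 1, 0 and 0 counts in ControlΔEC and 170, 47 and 150 counts in Wt1KOΔEC replicates. Pooled over libraries this was a 451-fold ratio with a 95% exact interval of 80.5 to 17870, which covers counting error of the pooled reads and not the spread between libraries. The adjusted p of *Efemp1* was 0.108, while DESeq2 called it (adjusted p = 1.52e-06). *Efemp1* passed the filter through the Wt1KOΔEC libraries alone, where it was high, so these p-values are given as description only. It remains in the counts and the median of its list. *Anxa8*, a gene for a membrane-binding annexin, was at 1.59, 0.345 and 3.88 CPM against 5.68, 15.6 and 5.78 CPM (log2 fold change 2.23 ± 0.83, adjusted p = 0.309). *Lrrn4*, a mesothelial surface gene, was at 3.46, 0 and 0 CPM against 5.25, 0.421 and 9.41 CPM, with overlap (log2 fold change 2.11, adjusted p = 0.720).

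The transcription factor genes of this list were at low levels in both genotypes. *Tcf21*, active in epicardium and fibroblast precursors, was at 1.41 ± 1.28 and 2.97 ± 1.03 CPM, *Tbx18*, an epicardial T-box factor, at 0.503 ± 0.236 and 1.07 ± 0.278 CPM, and *Bnc1*, a mesothelial zinc finger gene, at 0.223 ± 0.387 and 0.294 ± 0.327 CPM in ControlΔEC and Wt1KOΔEC libraries. Of these 3, which were chosen after their values had been seen, *Tbx18* had groups without overlap, and its adjusted p was 0.782.

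Of 17 further genes of the retinoic acid pathway, 14 were tested, with 8 above 0, 6 below 0, no DEG in edgeR and a median log2 fold change of 0.09. *Aldh1a3*, which encodes the enzyme RALDH3, had 343, 11 and 8 counts in ControlΔEC and 33, 0 and 0 counts in Wt1KOΔEC replicates, so that ControlΔEC replicate 1 held most of them (log2 fold change -3.24 ± 2.05, adjusted p = 0.576). The retinoic acid degrading enzyme gene *Cyp26b1* was at 0.916, 2.51 and 2.11 CPM against 5.42, 4.04 and 2.14 CPM (log2 fold change 1.07, adjusted p = 0.597), and the retinoic acid carrier gene *Crabp2* had a log2 fold change of 0.67 (adjusted p = 0.875). *Rbp4*, the gene for the retinol carrier of plasma, was singled out after its values had been seen. It was at 0 in the 3 ControlΔEC libraries and had 62, 21 and 60 counts in Wt1KOΔEC replicates. This was at least 19.6-fold higher than the floor of 3 counts per library. *Rbp4* thus passed the filter through the Wt1KOΔEC libraries alone. So did *Stra6*, also named after its values had been seen, with 33, 32 and 0 counts there and none in ControlΔEC. Both genes remain in the counts and the median of their list. The adjusted p-values of *Rbp4*, 0.182 in edgeR and 0.000219 in DESeq2, are given as description only.

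Of 13 other epithelial genes, 8 were tested and all 8 had a log2 fold change above 0 (48.0% of all genes tested), with a median of 1.67, and none was a DEG in edgeR. *Krt14*, a keratin gene of stratified epithelium, passed the filter through the Wt1KOΔEC libraries alone, with 0, 18 and 60 counts there and none in ControlΔEC. *Grhl2*, an epithelial transcription factor gene, had 133, 0 and 5 counts in ControlΔEC and none in Wt1KOΔEC libraries, and did not pass the filter. *Spint2*, which encodes a protease inhibitor of epithelia, was at 3.60, 7.62 and 4.33 CPM against 13, 13.8 and 17.3 CPM (log2 fold change 1.5 ± 0.38, adjusted p = 0.198, and 0.00758 in DESeq2). *Epcam*, an epithelial adhesion gene, had a log2 fold change of 2.01 (adjusted p = 0.647), and the desmosome gene *Dsp* had 1.83 (adjusted p = 0.654), both with overlap. *Cdh1*, which encodes E-cadherin, had no count in any library. *Krt14*, *Grhl2* and *Cdh1* were named after their values had been seen.

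**Figure D3:**
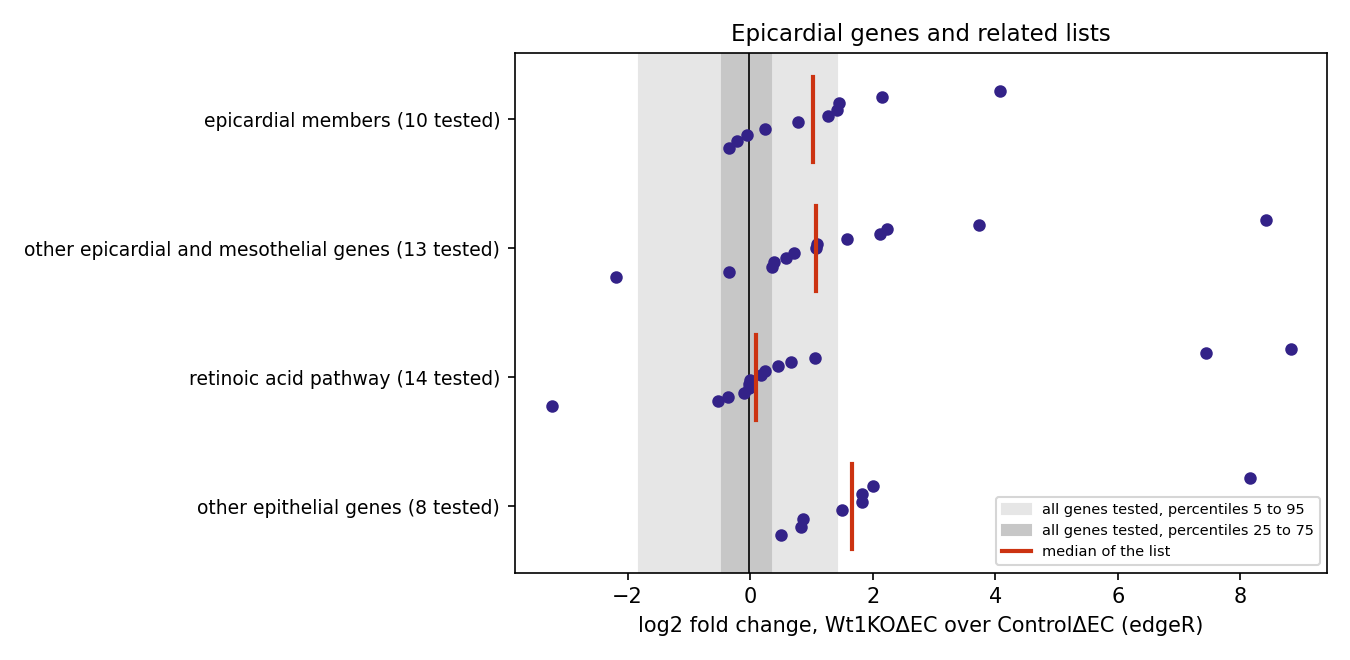
Log2 fold changes, Wt1KOΔEC over ControlΔEC, from edgeR (horizontal axis) of the 10 members and of 3 related lists (rows), 1 point per tested gene, with list medians as lines and shaded bands for the central range of all 16296 genes tested. The medians are 1.02, 1.08, 0.09 and 1.67 from top to bottom, and the 4 points above 7 are genes at or under the floor in every ControlΔEC library, whose fitted values are no bounds.

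Some lists of markers of other cell types also differed between genotypes. The 9 fibroblast markers summed to 909 ± 172 CPM in ControlΔEC and 1533 ± 108 CPM in Wt1KOΔEC libraries, without overlap. Of the 9, 8 had a log2 fold change above 0 (48.0% of all genes tested). In edgeR 1 was a DEG (0.0736% of all genes tested). Their most abundant gene was *Col3a1*, a fibrillar collagen gene, at 319 ± 65.1 against 624 ± 53.0 CPM. *Col3a1* was not that DEG (adjusted p = 0.110, and 3.07e-05 in DESeq2). The 4 endocardial markers in the table summed to 289 ± 55.1 and 416 ± 48.1 CPM, without overlap, and the 8 mural markers to 564 ± 87.5 and 347 ± 28.6 CPM, lower in every Wt1KOΔEC library. The most abundant endocardial gene, *Nfatc1*, overlapped between genotypes (log2 fold change 0.25 ± 0.23, adjusted p = 0.748). So did the most abundant mural gene, *Abcc9* (log2 fold change -0.415 ± 0.175, adjusted p = 0.362). Some genes of these lists have more than 1 reading in the study. It treats *Col1a1*, *Col3a1* and *Dcn* as venous markers of ECs, and *Rgs5* and *Kcnj8* of the mural list as arterial ones. *Col1a1* and *Acta2* are also among its fibroblast genes. Which cells carried these transcripts, and the part of such cells in the values of the epicardial genes, was not tested.

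Endothelial markers summed to 6597 ± 691 CPM in ControlΔEC and 6306 ± 503 CPM in Wt1KOΔEC libraries, with overlap. Cardiomyocyte markers summed to 97.8 to 228 CPM, macrophage markers to 231 to 837 CPM and erythroid markers to 5135 to 14350 CPM over the 6 libraries, each with overlap between genotypes. The most abundant cardiomyocyte gene, *Myh7*, also overlapped (log2 fold change 0.21 ± 0.34, adjusted p = 0.878). The same held for the most abundant erythroid gene, *Hba-a1* (log2 fold change -0.54 ± 0.31, adjusted p = 0.525). Of the markers tested, 3 of 10 endothelial, 7 of 8 cardiomyocyte and 3 of 8 erythroid ones had a log2 fold change above 0. So did 1 of 7 mural and 4 of 4 endocardial ones, against 48.0% of all genes tested. All 8 macrophage markers had a log2 fold change below 0 (median -0.63, ratio of summed means 0.550). Their most abundant gene *Csf1r*, which encodes the receptor for macrophage colony-stimulating factor, was lower in every Wt1KOΔEC library (log2 fold change -1.40 ± 0.39, adjusted p = 0.217, and 0.0104 in DESeq2). The erythroid sum was 9886 ± 4015 CPM in ControlΔEC and 7188 ± 1806 CPM in Wt1KOΔEC libraries. No gene of these 7 lists was at or under the floor in every library. The identifiers of the libraries differ by genotype while no batch is named in the labels, so a batch that followed genotype and the genotype itself cannot be told apart.

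**Figure D4:**
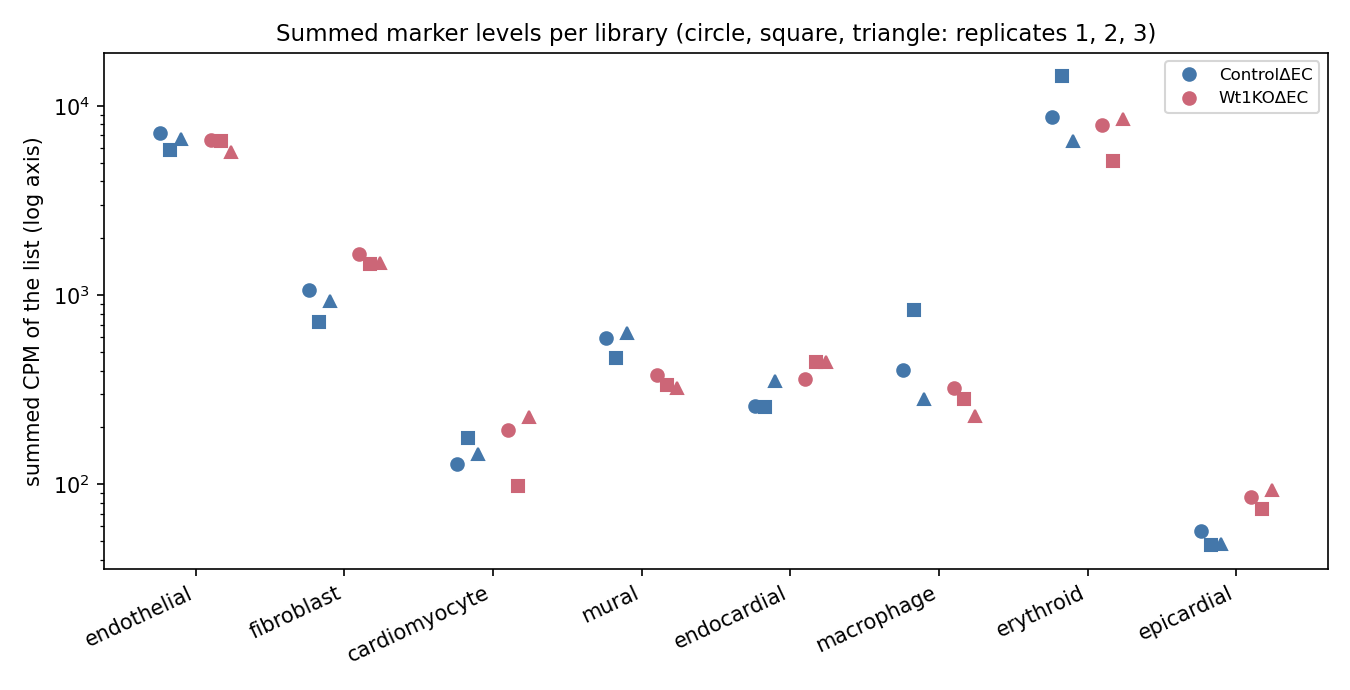
Summed CPM of 7 lists of cell type markers and of the 10 epicardial genes (horizontal axis) in every library, on a logarithmic vertical axis, with ControlΔEC in blue, Wt1KOΔEC in red and replicates 1, 2 and 3 as circles, squares and triangles. The epicardial sum of 47.8 to 92.9 CPM is the lowest of the 8, the genotypes are apart for the epicardial, fibroblast, endocardial and mural lists, and the endothelial sums overlap.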

How the data were processed

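RNA was measured in 3 ControlΔEC and 3 Wt1KOΔEC libraries of mGFP+ sorted ECs. The authors made them with SMART-seq2, which starts from oligo-dT priming and amplifies without molecular identifiers, and Nextera XT, mapped reads with STAR 2.7.8a and quantified GENCODE vM27 genes with RSEM 1.3.0. The methods name the genome GRCm39 and the processing notes GRCm38. RSEM expected counts were deposited as whole numbers without normalization, and totals were 26037324 to 44779020. Amplified reads are not independent molecules, so floors cover counting error only, and replicates of a genotype differed by far more than sampling noise. The series does not state a batch.

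Genotypes and replicates came from the labels. Counts were tested in R 4.3.3 with edgeR 4.0.16 (TMM, quasi-likelihood F test, 10 or more counts required in 2 or more libraries, Benjamini-Hochberg adjustment over 16296 genes, adjusted p under 0.05 and absolute log2 fold change above 0.58), and the code was tested on simulated data. Each standard error is the size of the log2 fold change divided by the root of F. Alternatives were DESeq2 1.42.0 (the authors used version 1.18), limma-voom (limma 3.58.1), other normalizations, filters and call rules, the replicate number as a block, and each library left out. Positions and lengths are from GENCODE vM39 on GRCm39, which held 54749 of the 55416 gene IDs. The members and lists were chosen with earlier results of these data known. Named genes were all members, *Wt1* and copies of members with counts. From each list of related genes they were any DEG and the 3 largest fold changes at a mean of at least 1 CPM. From each cell type marker list the most abundant gene was named, *Pecam1* for the endothelial one. Others are said to be chosen after their values were seen. *Cdh5* and the uroplakins at 0 are also outside that rule.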

Additional observations from a re-analysis of the deposited data

How the results depend on the processing

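The count of 0 members called became 2 with DESeq2 (759 genes called in all), 2 with an unadjusted p (1652 genes, *Upk3b* and *Msln* each time) and 1 with no filter on low counts (*Msln*, 296 genes). It stayed at 0 with limma-voom, the other normalizations and filters, no fold change limit, the block and each library left out. Genes called in all were 12, with 113 at 10 counts in every library, a setting in which *Dmkn*, *Krt8*, *Msln* and *Aldh1a1* had no value, and 2 to 37 with single libraries left out (26 without ControlΔEC replicate 2, 37 without ControlΔEC replicate 3, 4 without ControlΔEC replicate 1, 2 without Wt1KOΔEC replicate 3 and 3 without either of the other Wt1KOΔEC replicates). The log2 ratio of the summed level was 0.73, 1.25 without *Clu*, 0.58 by library size only and 0.65 to 0.81 with single libraries left out, an alternative chosen after seeing the data. *Upk3b*, *Upk1b*, *Msln*, *Krt8*, *Krt18* and *Krt19* kept a log2 fold change above 0 in every alternative that gave a value. Signs turned for *Aldh1a1* (0.74 with limma-voom, 0.75 with the block, -0.81 to 3.32 with libraries left out), *Aldh1a2* (0.36, 0.19 and -0.50 to 0.80), *Dmkn* (-0.67 to 0.52) and *Clu* (-0.03 to 0.54); the cause was not tested.

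Same-numbered libraries correlated at 0.0512, 0.0645 and 0.0445 in their deviations from the genotype means, under the limit of 0.1, so they were taken to share only a number, although each library correlated best with its own number. With the replicate number as a block, 5 genes and 0 members were called.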
